A study of Mus musculus with 6 samples.

Results

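Macrophages and osteoclasts were followed in the transcriptome of mouse chondrocyte cultures through 32 of the 17666 genes of the deposited gene table, taken by their symbols. Of these, 28 are macrophage genes and 4 are osteoclast genes (Acp5, Atp6v0d2, Ocstamp and Dcstamp), and all 32 had a row. The study compared 3 KO libraries, from Ppp1r15bPrx1;Rosa26mT/mG newborn mice, with 3 WT libraries, from Prx1-Cre;Rosa26mT/mG newborn mice, all at P0. In both groups GFP-positive chondroprogenitors were sorted from enzymatically digested knees, then grown in DMEM until they matured, per the growth protocol, whereas the series design text mentions no culture. Ppp1r15b encodes CReP, a regulatory subunit of the phosphatase that dephosphorylates eIF2alpha. Both genotypes carry the reporter allele, and Prx1-Cre, which acts in early limb mesenchyme, sets both where Ppp1r15b is lost and which cells turn green. Whether libraries of one genotype stand for different animals or culture dishes is not labelled, so the spread behind each p-value may be technical.

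Macrophages and osteoclasts are cells of the blood-forming lineage, whereas chondrocytes of the limb come from mesenchyme. Macrophages depend on the receptor Csf1r, which binds the cytokines CSF1 and IL-34, and on the transcription factor PU.1, encoded by Spi1. Osteoclasts form when macrophage-lineage precursors fuse under CSF1 and RANKL, and they resorb bone and calcified cartilage with secreted acid and enzymes.

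Libraries held 18380880 to 19581607 estimated counts in KO and 18757808 to 19643951 in WT. Ppp1r15b itself had 355, 428 and 557 counts in KO replicates 1 to 3 and 1707, 960 and 1675 in WT replicates 1 to 3. Its log2 fold change, KO over WT, was -1.70 (standard error, SE, 0.242; edgeR adjusted p = 0.0297). KO replicate 3 stood apart from KO replicates 1 and 2, with correlations of log2 CPM (counts scaled to library size) over genes of 0.9346 and 0.9337, against 0.9935 between those 2. WT replicate 2 stood apart less, at 0.9823 and 0.9819 with the other WT libraries, which correlated at 0.9938. Chondrocyte genes were abundant in all 6 libraries. The summed TPM (transcript abundance scaled for length and depth) of 10 chondrocyte genes was 18701, 19694 and 17953 in KO and 17867, 21218 and 16485 in WT. Most of this was Col2a1, at a mean of 12596 TPM, and the sum hides single genes. Of the 10, edgeR called 1 higher and 0 lower, or 2 higher and 0 lower without KO replicate 3. Over all genes tested, 0.884% were called higher and 1.63% lower with all libraries, and 12.5% and 16.1% without KO replicate 3. Picked after their values were seen, Matn1 was at 336%, 324% and 138% of the WT mean CPM in KO, and Cnmd at 148%, 137% and 47.8%. Calls of genes and gene lists are given with all libraries and, where it changes them, without KO replicate 3.

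The macrophage genes were lower in the KO libraries. Their summed TPM was 52.8, 49.7 and 476 in KO replicates 1 to 3 and 1020, 548 and 1015 in WT replicates 1 to 3, or 193 ± 245 in KO and 861 ± 271 in WT (mean ± SD, n = 3 each). KO replicates 1 and 2 were far below every WT library, while KO replicate 3 came close to WT replicate 2, and the groups did not overlap. The summed CPM of the KO group was 22.8% of that of the WT group. The 4 osteoclast genes summed to 5.75, 7.09 and 15 TPM in KO and 28, 15.2 and 29.5 TPM in WT. KO replicate 3 was just under WT replicate 2 in TPM, but above it in CPM, where the sums were 3.69, 4.28 and 14.9 in KO and 24, 13.2 and 25.1 in WT, so that the groups overlapped. In bulk RNA, fewer cells of a type and less RNA per cell cannot be told apart.

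Markers of adipocytes and skeletal muscle were also below every WT library in KO replicates 1 and 2, but differed in KO replicate 3. The 10 adipocyte genes summed to 95, 91 and 130 TPM in KO and 2383, 1117 and 2035 TPM in WT, so that KO replicate 3 stayed low. The 10 skeletal muscle genes summed to 26.6, 25.5 and 342 TPM in KO and 991, 127 and 887 TPM in WT, so that KO replicate 3 was above WT replicate 2. Endothelial genes summed to 13.9 to 16.8 TPM in KO and 15.5 to 20 TPM in WT, so that the groups overlapped. Most of this was Egfl7, at a mean of 10.8 TPM and at 105%, 91.6% and 97.8% of the WT mean CPM in KO. The sum hides lower genes such as Pecam1, at 17.3%, 13.1% and 110%, and Cdh5, at 15.1%, 6.11% and 116%. Markers of other white cells, 14 genes of T, B and NK cells, granulocytes, mast cells and dendritic cells, summed to 0.26 to 2.03 TPM in KO and 2.68 to 4.32 TPM in WT. In CPM these sums were 0.869, 0.274 and 1.33 in KO and 1.27, 0.925 and 1.33 in WT, so that the groups overlapped. None of those 14 had enough counts to be tested, and 7, 12 and 8 of them were at 0 in KO replicates 1 to 3, with 6, 9 and 6 at 0 in WT replicates 1 to 3. The part of these other cells in the macrophage result was not tested.

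**Figure D1:**
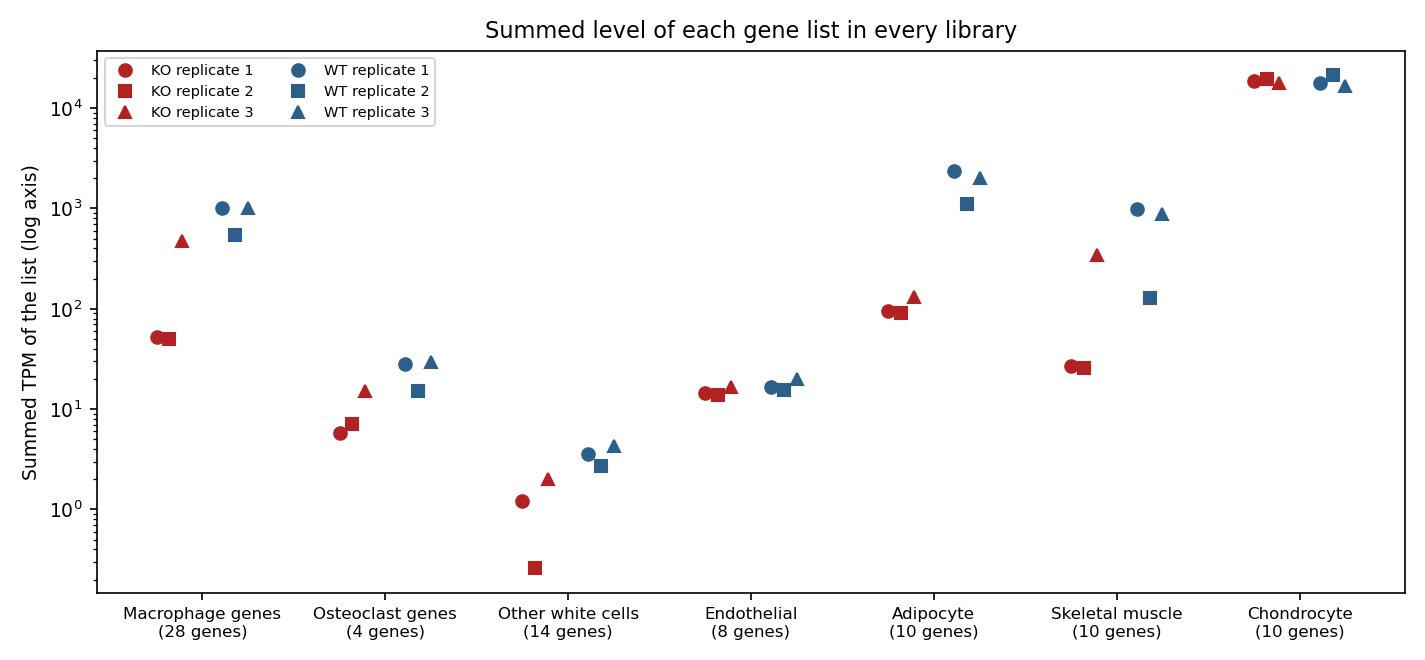
Summed TPM of each gene list (log axis) in 3 KO libraries (red) and 3 WT libraries (blue), 1 point per library. Macrophage genes were at 52.8 and 49.7 TPM in KO replicates 1 and 2, at 476 in KO replicate 3 and at 548 to 1020 in WT, while chondrocyte genes lay between 16485 and 21218 TPM in all 6 libraries.

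Of the 28 macrophage genes, 25 had enough counts for the gene test, and all 25 had a negative log2 fold change, from -4.66 to -1.08 with a median of -2.29. The median over all 13692 genes tested was 0.01. In 17 of the 25, all 3 KO libraries were below all 3 WT libraries in CPM, as they were for 14.5% of all genes tested, and in the other 8 the groups overlapped. For Cd74, Fcgr3 and Spi1 this rests on library scaling. In counts, KO replicate 1 equalled WT replicate 2 for Cd74 (37), and KO replicate 3 equalled it for Fcgr3 (137). For Spi1, KO replicate 3 had 99 counts and WT replicate 2 had 98. The edgeR test called 2 of the 25 lower (C1qa and Cd14) and none higher, against 1.63% of all genes called lower, and 12 of the 25 had an unadjusted p under 0.05, against 19.2% of all genes. DESeq2 called 10 lower, against 4.92% of all genes. Without KO replicate 3, edgeR called 24 of the 25 lower, against 16.1% of all genes, with a median log2 fold change of -4.41 over the 25. The exception was Cd74. Both C1qa and Cd14 lost the call when KO replicate 1, KO replicate 2, WT replicate 1 or WT replicate 3 was left out. In each of these settings 0 of all genes tested were called, so the loss was not particular to C1qa and Cd14.

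**Figure D2:**
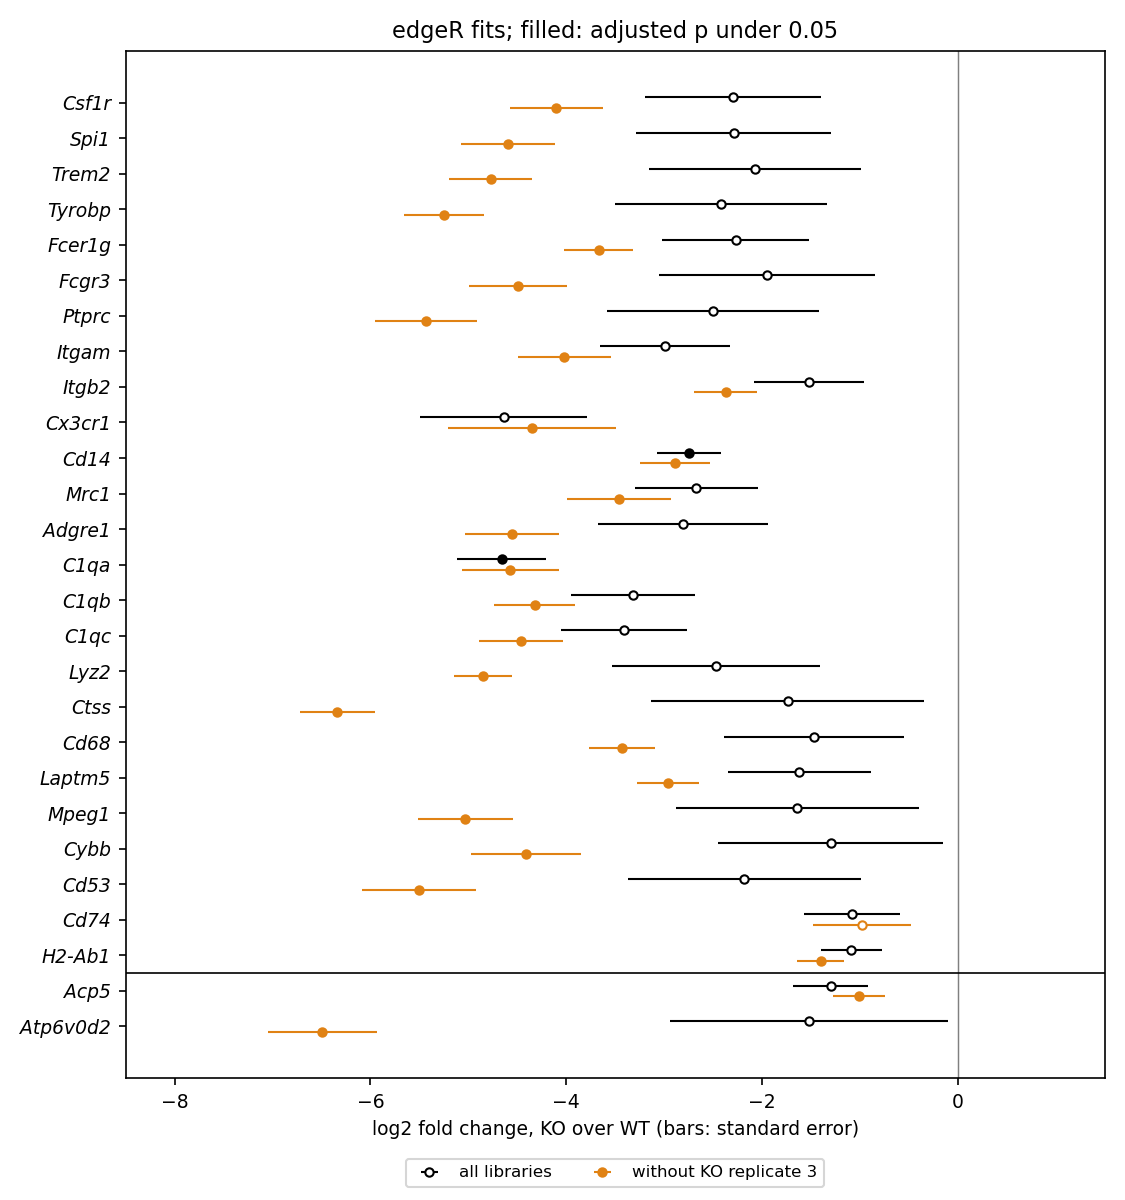
Log2 fold change of KO over WT with its SE for 25 macrophage genes and, below the line, 2 osteoclast genes, from edgeR with all 6 libraries (black) and without KO replicate 3 (orange); filled points have an adjusted p under 0.05. C1qa and Cd14 are filled with all libraries, and every gene except Cd74 is filled without KO replicate 3.

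The 3 chains of complement C1q, the recognition molecule that starts the classical complement pathway, lie in a row on chromosome 4 (GRCm38.p6), with C1qb at 136880126 to 136886200, C1qc at 136889801 to 136892936 and C1qa at 136895916 to 136898844. C1qa had 8, 3 and 5 counts in KO and 162, 83 and 170 in WT. All 3 KO libraries were low, KO replicate 3 included, and the groups were far apart. C1qa fell, with 0.282 ± 0.138 CPM in KO and 7.27 ± 2.42 CPM in WT (mean ± SD, n = 3 each) and a log2 ratio of KO to WT of -4.66 (SE 0.458; edgeR adjusted p = 0.0152). C1qb had 19, 12 and 68 counts in KO and 392, 192 and 389 in WT. C1qc had 13, 9 and 51 counts in KO and 309, 149 and 306 in WT. For both genes KO replicate 3 was the highest KO library and still below every WT library. Their log2 fold changes were -3.32 for C1qb (SE 0.633; edgeR adjusted p = 0.0567) and -3.41 for C1qc (SE 0.647; edgeR adjusted p = 0.0561). DESeq2 called both lower, as did edgeR without KO replicate 3, with log2 fold changes of -4.32 for C1qb and -4.46 for C1qc (edgeR adjusted p = 0.000404 and 0.000412).

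Cd14, the co-receptor through which macrophages sense bacterial lipopolysaccharide, was the other gene called. Its counts were 30, 28 and 42 in KO and 253, 133 and 286 in WT, low in all 3 KO libraries without overlap. Cd14 fell, with 1.75 ± 0.289 CPM in KO and 11.8 ± 4.11 CPM in WT (mean ± SD, n = 3 each) and a log2 ratio of KO to WT of -2.75 (SE 0.326; edgeR adjusted p = 0.0195).

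Promoter windows are shown for 4 genes that behaved differently in KO replicate 3. C1qb and C1qc were low there, and Ctss and Cybb, described further on, were near WT levels. The windows run from 250 bases before to 50 bases after the annotated start (RefSeq, GRCm38.p6), in the sense of the gene, at chr4:136886151-136886450 (minus strand) for C1qb, chr4:136892865-136893164 (minus strand) for C1qc, chr3:95526536-95526835 (plus strand) for Ctss and chrX:9469275-9469574 (minus strand) for Cybb. Capitals mark the core that PU.1 recognises, searched as GAGGAA and, for the other strand, TTCCTC.
C1qb: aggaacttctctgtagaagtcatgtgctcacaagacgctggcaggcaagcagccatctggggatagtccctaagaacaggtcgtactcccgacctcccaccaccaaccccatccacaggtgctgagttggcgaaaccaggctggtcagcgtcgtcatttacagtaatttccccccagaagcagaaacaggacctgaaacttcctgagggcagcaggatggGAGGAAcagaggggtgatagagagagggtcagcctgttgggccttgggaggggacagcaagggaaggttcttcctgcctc
C1qc: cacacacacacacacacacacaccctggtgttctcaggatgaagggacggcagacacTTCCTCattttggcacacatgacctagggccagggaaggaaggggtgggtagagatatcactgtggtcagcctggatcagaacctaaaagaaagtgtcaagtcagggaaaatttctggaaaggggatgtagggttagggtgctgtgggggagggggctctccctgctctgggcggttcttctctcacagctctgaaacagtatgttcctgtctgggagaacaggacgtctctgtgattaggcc
Ctss: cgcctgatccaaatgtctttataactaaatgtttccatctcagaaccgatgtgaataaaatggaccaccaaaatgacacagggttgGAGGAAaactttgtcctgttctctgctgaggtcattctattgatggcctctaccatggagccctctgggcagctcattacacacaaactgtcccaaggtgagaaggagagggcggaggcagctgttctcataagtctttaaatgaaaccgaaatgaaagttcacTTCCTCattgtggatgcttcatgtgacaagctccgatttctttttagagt
Cybb: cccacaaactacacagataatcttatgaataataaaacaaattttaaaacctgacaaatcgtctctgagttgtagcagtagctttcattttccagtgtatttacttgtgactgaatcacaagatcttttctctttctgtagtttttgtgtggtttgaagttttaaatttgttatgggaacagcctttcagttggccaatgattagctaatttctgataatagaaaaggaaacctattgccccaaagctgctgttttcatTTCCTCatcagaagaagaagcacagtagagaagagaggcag
The first base of the core lay at -30 in C1qb, at -193 in C1qc, at -164 and 1 in Ctss and at 10 in Cybb, counted from the start. Of the 32 genes, 20 had a window in the table, and 13 of those 20 held the core, in 14 of their 24 windows. It stood in 28.3% of all 32851 windows. The E-box CACGTG, read on both strands, stood in none of the 24 windows and in 7.15% of all windows. CATGTG, the same on the other strand as CACATG, stood in windows of 5 of the 20 genes (Acp5, C1qb, C1qc, Ctss and Mrc1) and in 14.2% of all windows. The AP-1 motif TGANTCA stood in windows of Cd68, Cybb and Trem2 and in 7.81% of all windows. A match describes the letters only.

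Csf1r, the receptor that keeps macrophages alive, had 20, 32 and 241 counts in KO and 618, 244 and 539 in WT. KO replicate 3 was within 3 counts of WT replicate 2. The log2 fold change of Csf1r was -2.30 (SE 0.899; edgeR adjusted p = 0.241), and -4.10 without KO replicate 3 (SE 0.471; edgeR adjusted p = 0.00087). Spi1, which encodes PU.1, had 7, 7 and 99 counts in KO and 223, 98 and 214 in WT. KO replicate 3 and WT replicate 2 thus had nearly equal counts of the factor's gene. The log2 fold change of Spi1 was -2.29 (SE 0.994; edgeR adjusted p = 0.28), and -4.59 without KO replicate 3 (SE 0.48; edgeR adjusted p = 0.000578).

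Receptors that signal through ITAM adaptors were again lowest in KO replicates 1 and 2. Tyrobp, which encodes the adaptor DAP12, had 4, 6 and 108 counts in KO and 245, 132 and 229 in WT. Fcer1g, the adaptor of Fc receptors, had 32, 21 and 172 counts in KO and 438, 222 and 395 in WT. KO replicate 3 was the highest KO library for both and below all WT libraries. Trem2, a lipid-sensing receptor that pairs with DAP12, had 8, 8 and 155 counts in KO and 296, 139 and 256 in WT, with KO replicate 3 above WT replicate 2. Fcgr3, a low-affinity receptor for IgG, had 14, 2 and 137 counts in KO and 195, 137 and 234 in WT, a tie in counts between KO replicate 3 and WT replicate 2. Reads of Fcgr3 may be shared with related Fc receptor genes. With all libraries the edgeR adjusted p of these 4 genes was 0.184 for Fcer1g, 0.295 for Tyrobp, 0.36 for Trem2 and 0.398 for Fcgr3. Without KO replicate 3 all 4 fell, with log2 fold changes of -3.67 for Fcer1g, -4.49 for Fcgr3, -4.77 for Trem2 and -5.25 for Tyrobp.

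Among surface proteins of white cells and tissue macrophages, Ptprc encodes CD45, the phosphatase on all nucleated white cells. It had 1, 3 and 48 counts in KO and 119, 62 and 105 in WT. Adgre1, which encodes the macrophage marker F4/80, had 12, 7 and 84 counts in KO and 286, 129 and 286 in WT. Mrc1, the mannose receptor, had 38, 34 and 126 counts in KO and 583, 175 and 483 in WT. KO was below WT in every pair of libraries for these 3 genes, and WT replicate 2 was the lowest WT library. Cx3cr1, the fractalkine receptor, had 0, 4 and 1 counts in KO and 59, 20 and 56 in WT, so that KO replicate 3 was as low as the other KO libraries. Its log2 fold change was -4.64 (SE 0.854; edgeR adjusted p = 0.0526), and -4.35 without KO replicate 3 (SE 0.857; edgeR adjusted p = 0.00855).

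The integrin chains Itgam (CD11b) and Itgb2 (CD18), which pair to form complement receptor 3, differed in KO replicate 3. Itgam had 10, 5 and 34 counts in KO and 164, 74 and 148 in WT, without overlap. Itgb2 had 33, 32 and 123 counts in KO and 205, 109 and 213 in WT, with KO replicate 3 above WT replicate 2. Their log2 fold changes were -2.99 for Itgam (SE 0.663; edgeR adjusted p = 0.0788) and -1.52 for Itgb2 (SE 0.559; edgeR adjusted p = 0.219). The tetraspanin gene Cd53 had 4, 3 and 110 counts in KO and 226, 88 and 197 in WT, with KO replicate 3 again above WT replicate 2.

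Lysosomal and phagosomal genes held the most abundant transcripts. Lyz2, which encodes lysozyme, had the highest TPM of the 28 macrophage genes, at 11.2, 11.1 and 156 TPM in KO and 379, 211 and 370 TPM in WT. KO replicate 3 was nearer to WT replicate 2 than to the other KO libraries. The log2 fold change of Lyz2 was -2.47 (SE 1.06; edgeR adjusted p = 0.275), and its reads may be shared with the near copy Lyz1. Cd68, a lysosomal membrane protein, had 65, 86 and 801 counts in KO and 984, 516 and 1033 in WT. Ctss, the protease cathepsin S, had 9, 7 and 629 counts in KO and 838, 463 and 752 in WT. Mpeg1, a pore-forming protein of phagosomes, had 17, 17 and 554 counts in KO and 749, 314 and 684 in WT. For Cd68, Ctss and Mpeg1, KO replicate 3 lay above WT replicate 2 and below the other WT libraries, and KO replicates 1 and 2 lay far below all of them.

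Laptm5, a lysosomal membrane protein of white cells, had 100, 97 and 610 counts in KO and 944, 484 and 968 in WT. Cybb, the catalytic subunit of the phagocyte NADPH oxidase, had 4, 2 and 81 counts in KO and 77, 39 and 90 in WT. For both, KO replicate 3 was above WT replicate 2, and for Cybb also above WT replicate 1. Cybb had a log2 fold change of -1.30 with all libraries (SE 1.15; edgeR adjusted p = 0.599) and of -4.41 without KO replicate 3 (SE 0.558; edgeR adjusted p = 0.0013).

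The antigen-presentation genes had the fold changes nearest to 0 among the 25 tested. H2-Ab1, a chain of an MHC class II molecule, had 38, 50 and 84 counts in KO and 109, 145 and 106 in WT. It was the 1 gene of the 25 in which WT replicate 2 was not the lowest WT library. The log2 fold change of H2-Ab1 was -1.09 (SE 0.31; edgeR adjusted p = 0.139), and DESeq2 called it lower. Cd74, the invariant chain of MHC class II, had 37, 10 and 21 counts in KO and 66, 37 and 42 in WT, with 37 counts in both KO replicate 1 and WT replicate 2. The log2 fold change of Cd74 was -1.08 (SE 0.493; edgeR adjusted p = 0.304), and of -0.98 without KO replicate 3 (SE 0.5; edgeR adjusted p = 0.182).

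Aif1, Cd163 and H2-Aa were under the count filter of the test, and edgeR called none of them when the filter was dropped. H2-Aa, the partner chain of H2-Ab1, had 4, 1 and 2 counts in KO and 7, 7 and 10 in WT (edgeR adjusted p = 0.21 without the filter, and an unadjusted p of 0.0213). Aif1, which encodes the macrophage marker IBA1, had 0 counts in every KO library and 3, 0 and 4 in WT, where a count of 0 allows up to 3. Cd163, a haemoglobin scavenger receptor, had 1, 2 and 1 counts in KO and 2, 0 and 2 in WT. No difference of Aif1 or Cd163 was detectable at this depth.

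KO replicate 3 did not hold a uniform fraction of the WT level. As a percentage of the WT mean CPM, the median of the 25 tested macrophage genes was 5.98 in KO replicate 1, 3.86 in KO replicate 2 and 48.7 in KO replicate 3. Of the 25, 23 were under 25% in KO replicate 1, 24 were under it in KO replicate 2, and KO replicate 3 was above both in 22. In KO replicate 3, Cx3cr1 was at 2.1%, C1qa at 3.4%, Cd14 at 17.6%, C1qc at 18.9%, C1qb at 19.7% and Itgam at 24.9%. At the other end, Ctss was at 86.5%, Cd68 at 89.3%, Mpeg1 at 89.7% and Cybb at 111%. KO replicate 3 was above WT replicate 2 in 8 genes and above every WT library in 0 of the 25.

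**Figure D3:**
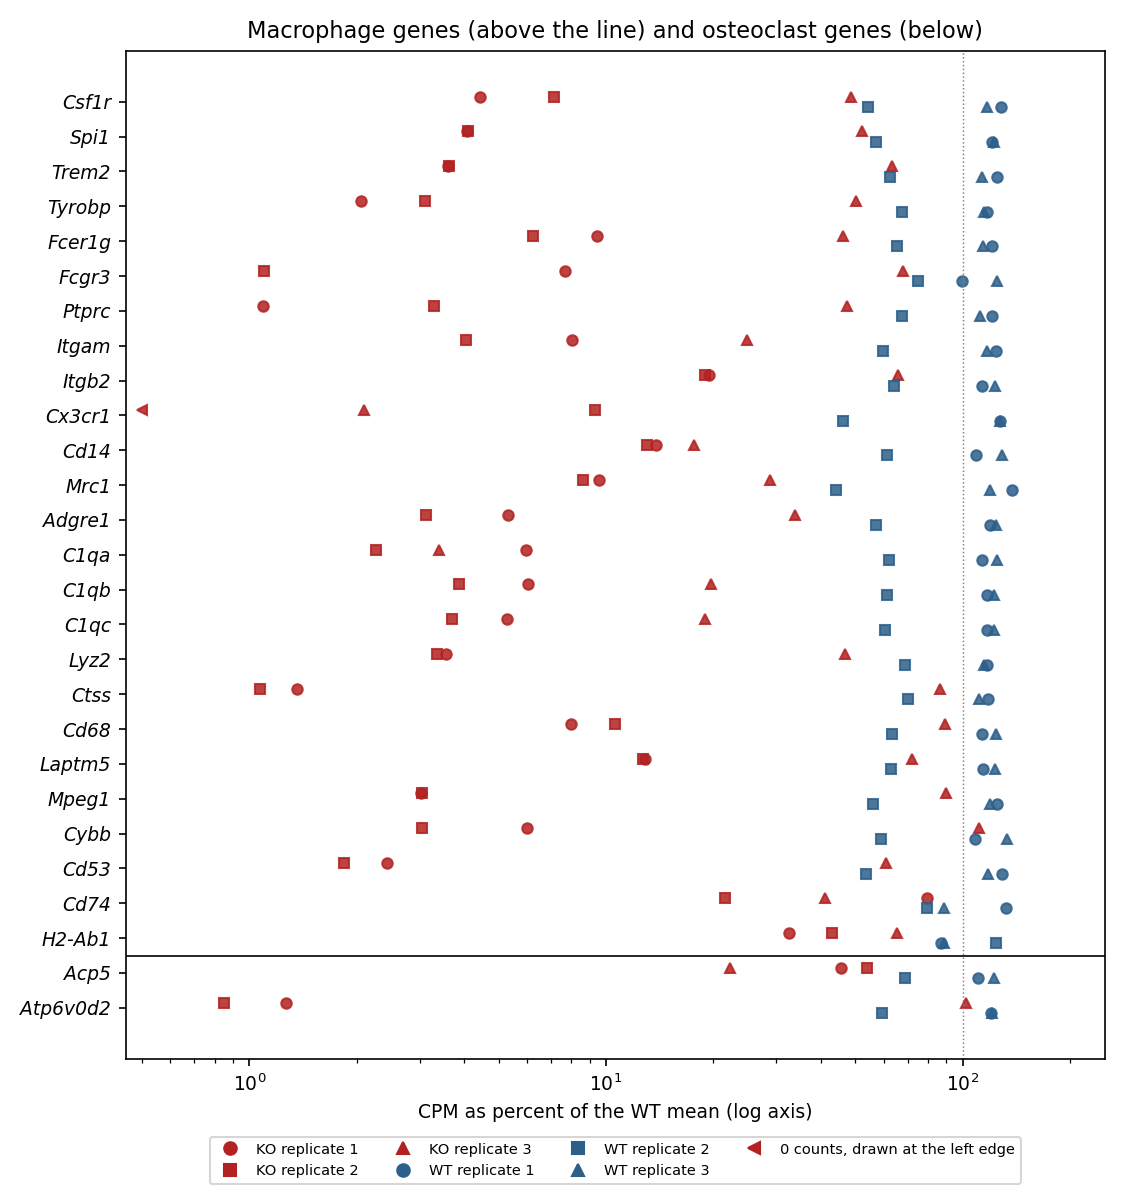
CPM of each gene in each library as a percentage of the WT mean (log axis), KO in red and WT in blue, with a symbol for each replicate number, macrophage genes above the line and osteoclast genes below it. KO replicate 3 ranges from 2.1% for Cx3cr1 to 111% for Cybb, while the medians of KO replicates 1 and 2 are 5.98% and 3.86%.

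The mix of transcripts was then read within the macrophage genes' own counts, as each gene's share of their total. The 28 genes had 623, 577 and 5765 counts in KO and 11883, 6030 and 11322 in WT. Together, C1qa, C1qb and C1qc made up 6.42%, 4.16% and 2.15% of them in KO and 7.26%, 7.03% and 7.64% in WT. Cd14 made up 4.82%, 4.85% and 0.729% in KO and 2.13%, 2.21% and 2.53% in WT. For both, KO replicate 3 was lower than all 5 other libraries. Ctss made up 1.44%, 1.21% and 10.9% in KO and 7.05%, 7.68% and 6.64% in WT. Mpeg1 made up 2.73%, 2.95% and 9.61% in KO and 6.3%, 5.21% and 6.04% in WT. For these, KO replicate 3 was the highest library, and KO replicates 1 and 2 were the lowest. Lyz2 made up 15.2%, 15.4% and 23.9% in KO and 27.6% to 30.5% in WT. For the C1q genes and Cd14, the 95% Wilson intervals of the 3 WT libraries overlapped. WT replicate 2 differed from the other WT libraries in Lyz2 (30.5%, against 28% and 27.6%), and also in Mrc1, at 2.9% against 4.91% and 4.27%, and in H2-Ab1, at 2.4% against 0.917% and 0.936%. These shares are given without a test, and their intervals cover counting error only.

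**Figure D4:**
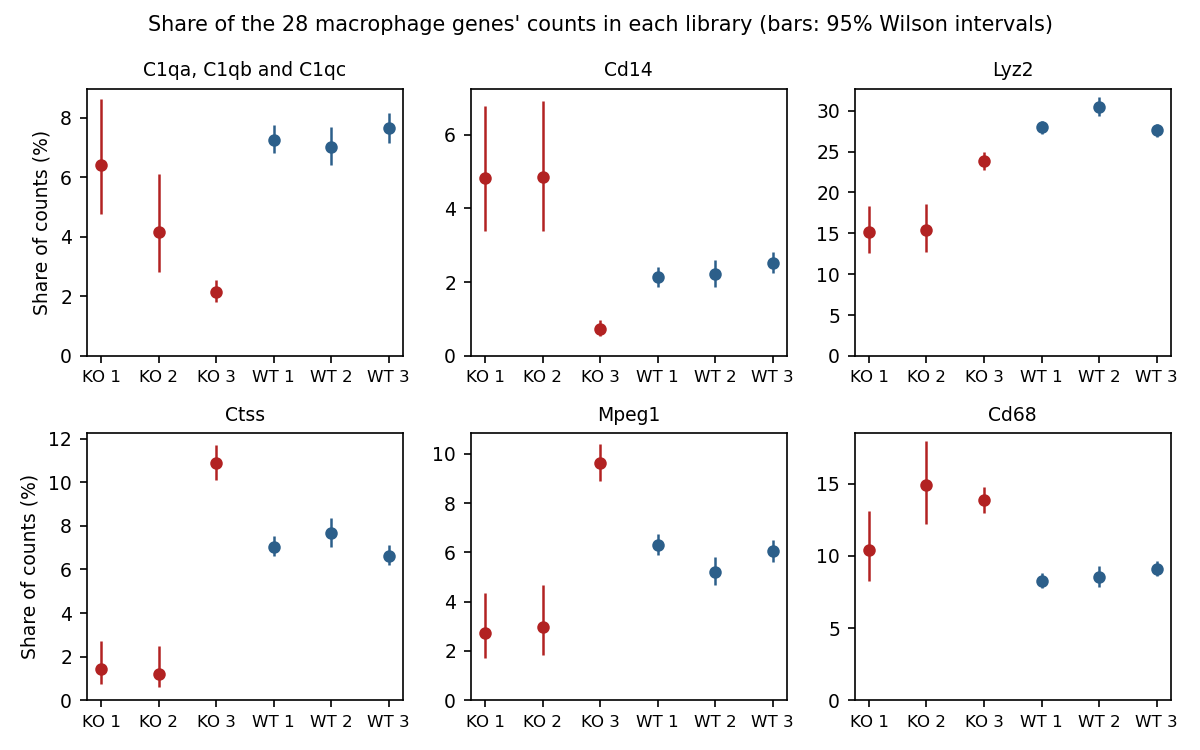
Share of the 28 macrophage genes' counts (percent) taken by the C1q genes, Cd14, Lyz2, Ctss, Mpeg1 and Cd68 in each KO (red) and WT (blue) library, with 95% Wilson intervals. KO replicate 3 has the lowest share of C1q genes (2.15%) and Cd14 (0.729%) and the highest share of Ctss (10.9%) and Mpeg1 (9.61%).

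Of the 32 genes, 16 had several RefSeq transcripts in the transcript table and 13 had both curated and computationally predicted ones. In Itgb2, the curated transcript had 0, 0 and 92.4 estimated counts in KO and 181, 109 and 213 in WT. All counts of Itgb2 in KO replicates 1 and 2 (33 and 32) were given to predicted transcripts, as were the 7 and 7 of Spi1. The curated Spi1 transcript had 0, 0 and 81.1 counts in KO and 191, 90.6 and 176 in WT. Laptm5 had 89.2%, 85.3% and 34.8% of its counts on the predicted transcript in KO and 12.1%, 28.4% and 30.5% in WT. These 3 genes were chosen after their values were seen. Predicted transcripts held most of their counts in KO replicates 1 and 2, at a low depth for Spi1. In the 4 other libraries the curated transcript did. Yet 1 predicted Itgb2 transcript had 33, 18.2 and 30.6 counts in KO, KO replicate 3 included, and 0 in every WT library. Csf1r did not share the pattern, with 1.9%, 38.5% and 76.4% on predicted transcripts in KO and 85.8%, 35.6% and 91% in WT. Estimated counts of transcripts that share exons carry an error that the files do not give.

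**Figure D5:**
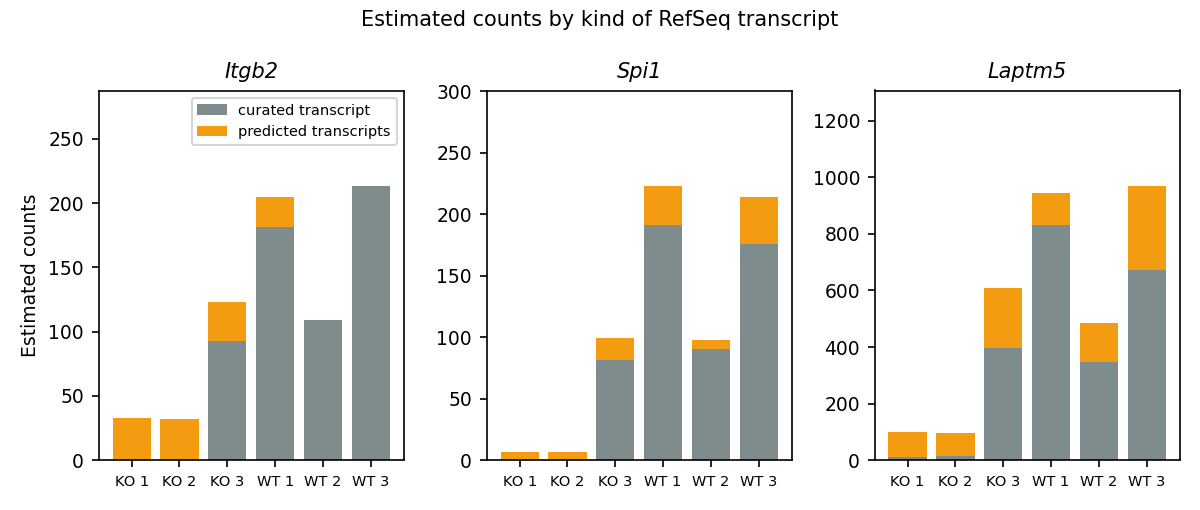
Estimated counts on the curated (grey) and the predicted (orange) RefSeq transcripts of Itgb2, Spi1 and Laptm5 in each KO and WT library. In KO replicates 1 and 2 the curated Itgb2 and Spi1 transcripts are at 0, against 109 to 213 and 90.6 to 191 counts in WT.

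The osteoclast genes gave no common picture. Acp5, which encodes the tartrate-resistant acid phosphatase (TRAP), had 65, 76 and 35 counts in KO and 167, 98 and 177 in WT. All KO libraries were below all WT libraries, and KO replicate 3 was the lowest. Acp5 averaged 3.14 ± 1.26 CPM in KO and 7.75 ± 2.15 CPM in WT (mean ± SD, n = 3 each), with a log2 ratio of KO to WT of -1.30 (SE 0.383; edgeR adjusted p = 0.146). Atp6v0d2, a subunit of the proton pump that acts in osteoclast fusion, had 3, 2 and 265 counts in KO and 304, 140 and 292 in WT. KO replicates 1 and 2 were almost empty, and KO replicate 3 was at 102% of the WT mean. Its log2 fold change was -1.52 with all libraries (SE 1.42; edgeR adjusted p = 0.624) and -6.49 without KO replicate 3 (SE 0.56; edgeR adjusted p = 0.000257). Ocstamp had 0, 0 and 2 counts in KO and 2, 5 and 0 in WT, and Dcstamp had 0 in every KO library and 0, 0 and 2 in WT. Both encode membrane proteins needed for the fusion of osteoclast precursors. Both were under the count filter, and without the filter edgeR called neither (edgeR adjusted p = 0.612 for Ocstamp and 0.577 for Dcstamp).

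With edgeR, 0 of the 2 tested osteoclast genes were called, 1 had an unadjusted p under 0.05, and DESeq2 called 1 (Acp5). Over all genes, 19.2% had an unadjusted p under 0.05 with edgeR, and DESeq2 called 3.63% higher and 4.92% lower. Without KO replicate 3 both tested osteoclast genes were called lower, against 16.1% of all genes. The log2 fold change of Acp5 was then -1.01 (SE 0.264; edgeR adjusted p = 0.026). Of 10 other tested genes linked to osteoclasts, edgeR called 0 with a median log2 fold change of 0.02, 3 had an unadjusted p under 0.05, and DESeq2 called 3. With KO replicate 3 left out, edgeR called 2 of the 10 higher (Ctsk and Clcn7) and 1 lower (Tnfrsf11a). Over all genes, 12.5% were called higher and 16.1% lower in that fit. Some of the 10 genes are not restricted to osteoclasts. Ctsk, the collagen-degrading cathepsin K, had 3726, 3351 and 5452 counts in KO and 2775, 2561 and 2710 in WT, higher in all KO libraries, with a log2 fold change of 0.63 (edgeR adjusted p = 0.0904), and of 0.45 without KO replicate 3 (edgeR adjusted p = 0.00171). Clcn7, a lysosomal chloride transporter, had 1983, 2002 and 2889 counts in KO and 1583, 1452 and 1567 in WT, with a log2 fold change of 0.57 (edgeR adjusted p = 0.0739), and of 0.43 without KO replicate 3 (edgeR adjusted p = 0.0017). Tnfrsf11a, which encodes the RANKL receptor RANK and was picked after its values were seen, had 6, 2 and 6 counts in KO and 29, 13 and 35 in WT (log2 fold change -2.43; edgeR adjusted p = 0.0812, or 0.0197 without KO replicate 3).

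Of the growth factors and signals that act on these cells, 6 genes were tested. With edgeR 0 were called, 2 had an unadjusted p under 0.05, against 19.2% of all genes, and DESeq2 called 0. With KO replicate 3 left out, edgeR called 3 of the 6 lower, against 16.1% of all genes. The 3 were Il34, the chemokine gene Ccl2, and Tnfrsf11b, which encodes the RANKL decoy receptor osteoprotegerin. Csf1, the ligand of Csf1r, had 10751, 10941 and 11190 counts in KO and 11504, 10619 and 11081 in WT, with overlapping groups and a log2 ratio of KO to WT of -0.01 (SE 0.0729; edgeR adjusted p = 0.951). Cxcl12, a chemokine that retains blood-forming cells, had 18163, 17825 and 2100 counts in KO and 18328, 12616 and 16895 in WT, so that KO replicate 3 alone was low. Il34, the other ligand of Csf1r, was picked after its values were seen, as were Ccl2 and Tnfrsf11b. Il34 had 67, 67 and 124 counts in KO and 151, 138 and 152 in WT (log2 fold change -0.79; edgeR adjusted p = 0.161), and its log2 fold change was -1.08 without KO replicate 3 (edgeR adjusted p = 0.00172). Without that library it was -1.49 for Ccl2 and -1.52 for Tnfrsf11b (edgeR adjusted p = 0.00223 and 0.00121).

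Of 11 tested transcription factors of the myeloid lineage, edgeR called 1 lower and 0 higher, against 1.63% and 0.884% of all genes. The median log2 fold change of the 11 was -0.69. Nr1h3, the oxysterol receptor LXR alpha, fell, with 95, 90 and 91 counts in KO and 235, 149 and 192 in WT and a log2 ratio of KO to WT of -1.05 (SE 0.185; edgeR adjusted p = 0.0486). KO replicate 3 did not stand apart for Nr1h3. Without it, edgeR called 7 of the 11 lower and 2 higher, against 16.1% and 12.5% of all genes. The 11 tested genes of ITAM and Fc receptor signalling had a median log2 fold change of -2.09, with 0 called by edgeR. Of them, 6 had an unadjusted p under 0.05, against 19.2% of all genes. DESeq2 called 4 lower, against 4.92% of all genes. Plcg2, a phospholipase downstream of ITAM receptors, had 207, 185 and 311 counts in KO and 405, 298 and 426 in WT, and the kinase gene Lyn had 91, 97 and 156 counts in KO and 208, 123 and 188 in WT. All 11 were called lower by edgeR without KO replicate 3, against 16.1% of all genes.

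The 5 partners of Cybb in the NADPH oxidase all had KO libraries below all WT libraries, as did 14.5% of all genes tested. The median log2 fold change of the 5 was -2.40. With edgeR 0 of the 5 were called and 3 had an unadjusted p under 0.05, against 19.2% of all genes. DESeq2 called 1 lower, against 4.92% of all genes. All 5 were called lower by edgeR without KO replicate 3, against 16.1% of all genes. The most abundant, Cyba, had 713, 613 and 444 counts in KO and 1088, 929 and 927 in WT. Rac2, the small GTPase of the complex, had 7, 4 and 80 counts in KO and 189, 87 and 190 in WT. Of the 3 tested partners of MHC class II, edgeR called 0 and DESeq2 called 1, and 1 had an unadjusted p under 0.05. Only H2-DMb1 of the 3 was called lower by edgeR without KO replicate 3, where 16.1% of all genes were. H2-DMa, a chain of the peptide-loading molecule H2-DM, had 173, 153 and 150 counts in KO and 162, 161 and 147 in WT, and H2-DMb1, the other chain, had 101, 112 and 93 in KO and 167, 174 and 150 in WT.

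Of 25 further macrophage genes that were tested, edgeR called 3 lower and 0 higher, against 1.63% and 0.884% of all genes. The median log2 fold change of the 25 was -2.02. Some genes of this list, such as Gpnmb, are not restricted to macrophages. Stab1, a scavenger receptor, fell, with 26, 29 and 58 counts in KO and 232, 111 and 178 in WT and a log2 ratio of KO to WT of -2.21 (SE 0.379; edgeR adjusted p = 0.0466). Arhgdib, a regulator of small GTPases, fell, with 627, 621 and 677 counts in KO and 1060, 1052 and 1115 in WT and a log2 ratio of KO to WT of -0.75 (SE 0.0657; edgeR adjusted p = 0.0136). All 3 KO libraries were below all WT libraries for Stab1 and Arhgdib. As a percentage of the WT mean CPM, KO replicates 1 to 3 were at 15.5%, 17.5% and 31.5% for Stab1. For Arhgdib they were at 59.9%, 59.9% and 58.9%, so that KO replicate 3 did not stand apart. Without KO replicate 3, edgeR called 21 of these 25 lower and 2 higher, against 16.1% and 12.5% of all genes.

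The mean log2 CPM of the 25 tested macrophage genes was compared with that of every tested gene outside the 32 over the 6 libraries. The closest of these by Pearson correlation were Selplg (0.9994), Gnai1 (0.9993), Ms4a7 (0.9977), Adig (0.9977), Kcnj15 (0.9969), Ifi207 (0.9967), Adap1 (0.9967), Ncf1 (0.9963), Fgd3 (0.9963) and Pea15a (0.996). Among the macrophage genes themselves, the correlation with this mean, which holds the gene itself, ran from 0.664 (Cd74) to 0.998. It was 0.964 for Atp6v0d2 and 0.523 for Acp5. These are descriptions over 6 libraries that share 1 order of low and high libraries, so many genes reach a high value.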

How the data were processed

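Per the labels' protocols, read pairs were aligned to mm10 with STAR 2.7.5a and counted with featureCounts 2.0.0 on GENCODE vM25 at a mapping quality above 20, with FastQC and MultiQC as quality control and DESeq2 1.28.1 as the test. The tables used here differ from that description. The deposited gene and transcript tables hold estimated counts under Entrez and RefSeq identifiers, 12.9% of the gene counts not whole, and TPM values scaled by the authors for length and depth. Which program, annotation release and strand setting made them is not given in the sources used here, so genes with near copies or overlapping neighbours, such as Fcgr3, Lyz2, Cx3cr1 and Csf1r, are uncertain.

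Estimated counts were rounded to whole numbers. The software was edgeR 4.0.16, with DESeq2 1.42.0 and limma 3.58.1 for alternatives, R 4.3.3 and its package data.table (1.17.8). After filterByExpr (a minimum count of 10 and a minimum total of 15) and TMM scaling, KO was tested against WT by edgeR's quasi-likelihood test without covariates, two-sided, with Benjamini-Hochberg adjustment over 13692 genes. The SE is the log2 fold change over the square root of F. For genes with few counts the fitted fold change moves with the prior count and is not a bound. A gene was called, or said to have risen or fallen, at an adjusted p under 0.05. Library sizes for CPM were TMM-scaled, with a prior count of 2 for log2 CPM. Replicates varied by a coefficient of 22.9% (common dispersion 0.0525), and pairs within a genotype differed by more than sampling noise (chi-square per degree of freedom 3.13 to 133). Scripts were tested on simulated counts. The rule for named genes took all 32 genes, from each further list its called genes (at most 6) or else the 2 most abundant, and the 10 genes most like the macrophage mean. For 1 gene taken by this rule the result is not reported here. Members, lists and alternatives were chosen with earlier results of these data known. Alternatives were other scalings, tests and filters, the replicate number as a block, and libraries left out.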

Additional observations from a re-analysis of the deposited data

How the results depend on the processing

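Of 385 alternative values of the fold changes of the tested macrophage and osteoclast genes, 317 kept direction and call, 10 kept direction and lost the call, 58 kept direction and gained a call, and 0 changed direction. The number of macrophage genes called lower was 2 with all libraries, 10 with the DESeq2 Wald test, 1 of 9 tested with at least 1 CPM in all 6 libraries, 0 with the replicate block, 0 to 24 with 1 library left out (24 without KO replicate 3, 0 without KO replicate 1, KO replicate 2, WT replicate 1 or WT replicate 3) and 25 without WT replicate 2 and KO replicate 3 together. Of the osteoclast genes, 0 were called lower with all libraries, 1 with DESeq2, 0 to 2 with 1 library left out (2 without KO replicate 3) and 2 without WT replicate 2 and KO replicate 3 together. Over all genes, 121 rose and 223 fell with all libraries. With DESeq2 497 rose and 674 fell, and with at least 1 CPM in all 6 libraries 148 fell. With the replicate block 1 rose and 4 fell. With 1 library left out 0 to 1731 rose and 0 to 2231 fell, and without WT replicate 2 and KO replicate 3 together 2416 rose and 3000 fell. Over all genes, 0 rose and 0 fell without KO replicate 1, KO replicate 2, WT replicate 1 or WT replicate 3. The summed CPM of the macrophage genes in KO, 22.8% of WT with all libraries, was 6.4% to 31.2% with 1 library left out, the lowest being without KO replicate 3. For the osteoclast genes, at 36.7%, it was 19.2% to 46.2%. DESeq2 gave no adjusted p for Ctss, Mpeg1 and Atp6v0d2. Same-numbered KO and WT libraries were not shown to be pairs. Correlations of their deviations from the group means were -0.143, 0.215 and 0.238 for numbers 1 to 3. Under the replicate block, 23 macrophage genes had an unadjusted p under 0.05, against 15% of all genes. With no filter beyond 1 count, all 28 macrophage and 4 osteoclast genes were tested, and 2 and 0 of them were called. Of them, 16 and 1 had an unadjusted p under 0.05, against 16.4% of all genes, but genes under the filter rest on few counts. Why calls moved with these settings was not tested.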

Other observations

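Among the further macrophage genes, KO replicate 3 again ranged from near 0 to above WT, and the genes named here were chosen after their values were seen. Lyve1, Pf4 and Folr2 were at 0%, 17.4% and 19.8% of the WT mean CPM in that library. Ccr2 and Cd86 were at 0% there too, Cd52 was at 17.3%, and Stab1 was higher, at 31.5%. Lyve1 was low in every KO library, with 2, 1 and 0 counts in KO and 28, 9 and 22 in WT. Lyve1, Ccr2 and Cd86 were under the count filter of the test. Csf2rb, the shared chain of the receptors for GM-CSF and IL-3, had 0, 1 and 98 counts in KO and 111, 59 and 102 in WT. Clec7a, the beta-glucan receptor Dectin-1, had 0, 0 and 48 counts in KO and 35, 9 and 24 in WT, with KO replicate 3 above every WT library. Gpnmb, a lysosomal glycoprotein of macrophages, osteoclasts and other cells, had 10886, 10952 and 65099 counts in KO and 13935, 12340 and 14870 in WT, so that KO replicate 3 was at 445% of the WT mean. Car2, the carbonic anhydrase with which osteoclasts make acid, had 4, 5 and 74 counts in KO and 13, 11 and 13 in WT. With all libraries edgeR called none of Csf2rb, Clec7a, Gpnmb and Car2 (edgeR adjusted p 0.622, 0.88, 0.481 and 0.639), and no cause was tested.

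Endothelial genes also differed between KO libraries. Pecam1 had 4, 3 and 28 counts in KO and 37, 13 and 22 in WT, and Cdh5 had 5, 2 and 42 in KO and 47, 13 and 43 in WT. Tek, the angiopoietin receptor, had 100, 110 and 21 counts in KO and 87, 74 and 93 in WT, the opposite order of KO libraries. With edgeR 0 of the 7 tested endothelial genes were called, 0 had an unadjusted p under 0.05, against 19.2% of all genes, and DESeq2 called 0. Without KO replicate 3, edgeR called 4 of the 7 lower (Pecam1, Cdh5, Kdr and Tie1; edgeR adjusted p 0.0144, 0.015, 0.00321 and 0.0191). In that fit 16.1% of all genes were called lower. These calls rest on few counts, such as 0, 0 and 17 in KO and 13, 4 and 12 in WT for Tie1.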
